A study of Homo sapiens with 66 samples.

Results

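F-36P is a human acute myeloid leukemia (AML) cell line of the erythroid type that is grown with GM-CSF. Described here are 66 protein-coding genes that were without a single read in untreated F-36P cells and were read in all etoposide-treated F-36P libraries. The genes were chosen by their read counts: 0 reads in each of the 3 untreated libraries and at least 20 reads in each of the 3 etoposide libraries, with symbols starting PCDH, HOX, CXCL or CCL left out. Of 19629 protein-coding genes among 57992 identifiers, 4555 had 0 reads in the 3 untreated libraries, and 66 of these met the limit (1.45%). The untreated to etoposide difference in F-36P therefore selected the genes, and it is given below as a description without a test.

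RNA was sequenced from F-36P and 10 other AML cell lines, either left untreated or treated with etoposide for 24 hours. The others were THP-1, NOMO-1, MOLM-13 and MV-4-11, then KASUMI-1, HL-60 and NB-4, and also MONO-MAC-6, OCI-AML3 and OCI-AML2. Each line had 3 untreated and 3 etoposide libraries, 66 in all, and each library came from cells of 3 wells pooled before RNA isolation. Etoposide was given at the IC50 of each line, so the concentration differed between lines. By the IC50 values of the study it was highest in F-36P and next highest in KASUMI-1. The study set aside the etoposide libraries of OCI-AML2 for failing the quality control of raw reads, and counts over lines are given with and without that line.

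Etoposide poisons topoisomerase II, an enzyme that cuts both strands of DNA to let another helix pass, and holds it on the cut ends. Cells answer such breaks with checkpoint arrest, repair, p53 target induction or death. Genes that a differentiated cell does not use are usually kept silent by chromatin and by a lack of the activators of other tissues, and leukemia lines of one origin commonly leave genes of nerve, epithelium or muscle unread. In bulk RNA, a few cells with many transcripts and many cells with few transcripts cannot be told apart.

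The libraries held 17997404 to 24101670 reads assigned to genes (median 20241014). Erythroid markers were abundant in F-36P: the summed level of 14 erythroid markers ranged from 7508 to 9256 CPM (reads of a gene scaled to a common library size) in untreated and from 5851 to 6490 CPM in etoposide-treated libraries. Reads spread over more genes after etoposide in F-36P. Coding genes with at least 1 read numbered 14033 to 14129 in the untreated and 17453 to 17541 in the etoposide libraries, and long noncoding genes with a read rose from between 3651 and 3701 to between 6971 and 7173. Of the 4555 silent coding genes, 1996 (43.8%) had at least 1 read in each etoposide library, 705 had at least 5, 275 had at least 10 and 66 had at least 20, whereas 1383 remained at 0. Markers of other cell types also gained reads in F-36P: the sum of 6 epithelial markers went from 26.8–35.6 to 113–147 CPM, that of 5 T and NK cell markers from 2.24–3.31 to 17.5–18.2 CPM, that of 5 fibroblast markers from 0.21–0.42 to 4.71–5.6 CPM, and that of 4 neuron markers from 0.05–0.32 to 1.27–1.59 CPM. Monocyte and granulocyte markers went from 420–467 to 693–739 CPM with ELANE at 0, B cell markers from 6.12–7.31 to 16.7–21.8 CPM and endothelial markers from 32.9–42.3 to 63.3–86 CPM. Megakaryocyte markers were at 379–426 and 372–454 CPM, and hepatocyte markers at 44.4–84.3 and 30.6–35 CPM. Some sums rested on single genes. The erythroid sum was mostly HBG2, at 5954, 5760 and 4052 and then 3667, 4165 and 3922 CPM. TFRC fell from 774, 1130 and 1409 to 443, 384 and 400 CPM. Not all of the 14 markers fell: ALAS2 was at 154.54, 135.25 and 104.55 and then 161.59, 169.01 and 158.41 CPM. CDH1 went against its list, from 30.62, 25.18 and 21.59 to 11.42, 10.21 and 11.69 CPM, while the other epithelial markers rose. KRT8 made most of that rise, from 2.58, 1.68 and 2.44 to 66.35, 79.86 and 92.11 CPM. The endothelial sum was mostly PECAM1, at 32.87, 39.16 and 42.28 and then 84.27, 81.02 and 60.86 CPM. No T and NK cell, epithelial, fibroblast or neuron marker was at 0 in all 6 F-36P libraries. The part of this broad gain in the results on the 66 genes was not tested.

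The promoter sequences of 4 of the genes are shown because they stand for the extremes of the pattern: GPR4 had the most reads in F-36P and next to none elsewhere, PDK4 was read in a few lines, CLSTN2 reached the highest level of the 66 genes in another line, and CD101 was called higher in the most lines. Each is 300 bases of RefSeq on GRCh38.p14, from 250 before to 50 after the annotated start, 5′ to 3′ on the strand of the gene. Capitals mark matches, on either strand, to 6 short motifs: the TATA box letters TATAAA, the box CCAAT, the GC box GGGCGG, the cyclic AMP response element TGACGTCA, the AP-1 site TGANTCA and the E-box CACGTG. GPR4 is at chr19:45602163-45602462 (minus strand), PDK4 at chr7:95596467-95596766 (minus strand), CLSTN2 at chr3:139934935-139935234 (plus strand) and CD101 at chr1:117001510-117001809 (plus strand).
GPR4: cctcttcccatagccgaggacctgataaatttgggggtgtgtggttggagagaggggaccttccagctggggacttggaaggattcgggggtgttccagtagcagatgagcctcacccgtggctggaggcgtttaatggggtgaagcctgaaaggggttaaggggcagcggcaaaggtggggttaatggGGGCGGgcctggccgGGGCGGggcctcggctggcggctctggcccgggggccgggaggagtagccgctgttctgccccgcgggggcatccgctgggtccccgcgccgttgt
PDK4: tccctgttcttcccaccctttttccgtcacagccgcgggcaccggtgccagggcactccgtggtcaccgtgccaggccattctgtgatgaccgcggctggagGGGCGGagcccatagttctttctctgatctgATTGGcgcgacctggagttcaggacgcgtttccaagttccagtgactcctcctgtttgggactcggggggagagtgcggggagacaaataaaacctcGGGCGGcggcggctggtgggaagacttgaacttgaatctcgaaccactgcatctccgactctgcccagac
CLSTN2: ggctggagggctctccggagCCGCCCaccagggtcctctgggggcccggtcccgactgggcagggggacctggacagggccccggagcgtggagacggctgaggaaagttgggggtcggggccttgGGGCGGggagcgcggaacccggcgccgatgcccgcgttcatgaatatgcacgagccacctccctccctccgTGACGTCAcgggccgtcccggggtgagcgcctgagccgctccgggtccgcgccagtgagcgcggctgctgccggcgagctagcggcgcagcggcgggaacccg
CD101: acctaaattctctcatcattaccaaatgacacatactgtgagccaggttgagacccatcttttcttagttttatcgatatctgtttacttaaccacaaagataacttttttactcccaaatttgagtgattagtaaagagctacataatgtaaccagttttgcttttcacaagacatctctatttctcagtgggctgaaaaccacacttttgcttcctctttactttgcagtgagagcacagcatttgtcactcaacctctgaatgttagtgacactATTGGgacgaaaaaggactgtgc

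Promoters of this table were matched by symbol for 57 of the 66 genes (86.4%), taking the first start listed for each. Their median GC content was 64.3% against 58.3% over all 27305 promoters, and 29 of 57 (50.9%) had an observed over expected CpG ratio of at least 0.6 against 49% of all. The GC box GGGCGG stood in 32 of 57 promoters (56.1%) against 44.6% of all, CCAAT in 18 (31.6%) against 35.7%, TATAAA in 6 (10.5%) against 12%, TGANTCA in 3 (5.3%) against 7.8% and TGACGTCA in 1 (1.8%) against 2%. CACGTG was in none of the 57, against 7.4% of all promoters. The paired p53 half-site was in none of the 57 and in 8 of 27305. The table also holds promoters of noncoding genes. Those of coding genes alone had a median GC content of 63%, a CpG ratio of at least 0.6 in 66.7% and GGGCGG in 59.3%, and against these the GGGCGG and CpG shares of the 66 genes are the lower ones. Only 77.7% of coding genes and 70.6% of the other silent coding genes had a promoter in the table, so a comparison with either is void and nothing is read from these differences. These matches describe letters in a window and not bound sites.

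The 66 genes lay on 18 chromosomes, with 12 on chromosome 1 and 8 each on chromosomes 6 and 12. They were long: the median exon length was 7538 bases against 2437 for the 4489 silent coding genes that did not qualify and 4471 for all coding genes, and the median gene span was 111638 bases against 13122 and 27589. Reads rise with exon length, and across the 4555 silent genes exon length and the summed reads after etoposide correlated (Spearman's rho 0.486, across genes of the same 3 libraries, which are not independent replicates). Of the silent genes with at least 5 kb of exon, 71.4% had a read in each etoposide library, against 37% of those under 5 kb. The silent olfactory receptor genes, short genes of the nasal sensory epithelium, had a read in each etoposide library in 16 of 371 cases (4.3%). Per kb of exon, the level of the 66 genes in F-36P after etoposide ranged from 0.036 CPM per kb in MUC16 to 1.58 in C1QC, with a median of 0.231 against 1.33 for all coding genes. Neighbours were few: NOS1, the neuronal nitric oxide synthase, and KSR2, a scaffold of the RAF-MEK cascade, lay 842 bases apart on the minus strand of chromosome 12, and 4 pairs of next genes were under 1 Mb apart. For 3 of the 66 genes (4.5%) and 3.9% of the other silent coding genes, a gene at 5 CPM or more after etoposide ended within 10 kb upstream on the same strand: EIF3I (267.3 CPM after etoposide) before LCK, HIPK1 (195.1 CPM) before OLFML3 and EML2 (32.9 CPM) before GPR4. GPR4 also overlaps OPA3 on the same strand, which was at 42.5 CPM in untreated and 37.7 CPM in etoposide-treated F-36P. Another 13 of the genes overlap a coding gene on the opposite strand, and 9 of these partners were at 30 CPM or more in untreated F-36P, where the genes themselves had 0 reads. Which column of the counter was deposited is not stated, and the part of neighbouring transcription in the reads was not tested.

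In F-36P after etoposide, the summed reads over 3 libraries ranged from 61 for LAMA1 to 248 for GPR4, with a median of 92. Against the limit of 3 reads that a count of 0 over 3 untreated libraries allows (0.052 CPM), these are at least 20.7-fold to at least 84-fold higher, for counting error only. The 3 etoposide libraries held 2374, 2271 and 2392 reads of the 66 genes, where the rule itself required reads of each gene in every library. Just inside the limit were RGS8 with 26, 20 and 26 reads, SLC51A with 25, 23 and 20, and CATSPER1 with 20, 37 and 30. Just outside were PTPN3 with 23, 19 and 21 reads, ANO1 with 26, 19 and 28, and NCAM1 with 22, 19 and 24. All levels were low: 14 of the 66 genes reached 2 CPM and LAMA1 stayed below 1 CPM.

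**Figure D1:**
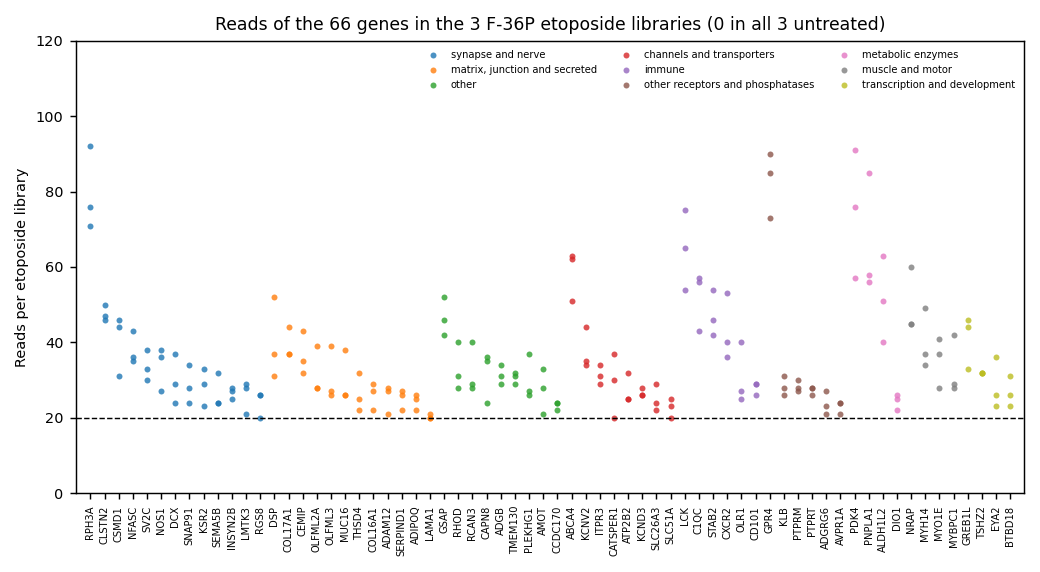
Reads of each of the 66 genes (horizontal axis, grouped by role) in the 3 etoposide libraries of F-36P (vertical axis, reads per library, 1 point per library). The dashed line is the limit of 20 reads that chose the genes, and most genes lie just above it, with GPR4, RPH3A and PDK4 between 57 and 92.

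The genes were sorted by what they are known to do, with the genes already known. The largest group was of synapse and nerve, with 13 genes. The share of such genes among all silent coding genes was not counted, so no theme is read from the size of a group. RPH3A, rabphilin, an effector of synaptic vesicle exocytosis, had 92, 71 and 76 reads (3.89 ± 0.403 CPM, SD, n = 3). CLSTN2, a postsynaptic calsyntenin, had 46, 47 and 50 reads. CSMD1, a large membrane regulator of complement in brain, had 44, 31 and 46 reads. The others were NFASC (an adhesion molecule of the node of Ranvier), SV2C (a synaptic vesicle protein), NOS1, DCX (a microtubule protein of migrating neurons), SNAP91 (a clathrin adaptor of synaptic vesicles), KSR2, SEMA5B (an axon guidance cue), INSYN2B, LMTK3 (a membrane kinase) and RGS8 (a brake on G protein signals). Of a list of 30 neuronal and synaptic genes, 10 were silent in untreated F-36P and all 10 had a read in each etoposide library, but only RPH3A met the limit. Its summed level went from 25.3–27.8 to 79.1–87.6 CPM.

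Matrix, junction and secreted proteins made up 12 genes. They include DSP, desmoplakin of desmosomes (52, 31 and 37 reads), COL17A1, a hemidesmosome collagen (37, 37 and 44 reads), COL16A1, a fibril-associated collagen (22, 29 and 27 reads), and the secreted olfactomedin proteins OLFML2A (39, 28 and 28 reads) and OLFML3 (27, 26 and 39 reads). CEMIP, which binds and degrades hyaluronan, MUC16, a mucin of epithelia, THSD4, a microfibril protein, ADAM12, a metalloprotease, SERPIND1, the liver's heparin cofactor, ADIPOQ, the hormone of fat cells, and LAMA1, a basement membrane laminin, complete the group. The channels and transporters were 8 genes: ABCA4, the retinoid transporter of photoreceptors (62, 51 and 63 reads), KCNV2, a potassium channel subunit of the retina, ITPR3, an IP3-gated calcium channel, CATSPER1, a sperm calcium channel, ATP2B2, a plasma membrane calcium pump, KCND3, a voltage-gated potassium channel, SLC26A3, the chloride and bicarbonate exchanger of the colon, and SLC51A, a subunit of the steroid and bile acid exporter.

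Immune genes numbered 6. LCK, the Src family kinase of the T cell receptor, had 54, 65 and 75 reads, C1QC, a chain of complement C1q, 43, 56 and 57 reads, and STAB2, a hyaluronan scavenger receptor of sinusoidal endothelium, 42, 46 and 54 reads. CXCR2, the neutrophil receptor of interleukin-8, had 53, 40 and 36 reads, OLR1, the receptor of oxidised low density lipoprotein, 40, 27 and 25 reads, and CD101, an immunoglobulin superfamily protein of myeloid and T cells, 29, 29 and 26 reads. Of a list of 30 lymphoid genes, 10 were silent before etoposide, 6 of them had a read in each etoposide library, and none met the limit. The other receptors and phosphatases were GPR4, a proton-sensing receptor of endothelium with 73, 85 and 90 reads (4.05 ± 0.525 CPM), KLB, the co-receptor of fibroblast growth factor 21, ADGRG6, an adhesion receptor of myelination, AVPR1A, a vasopressin receptor, and the receptor tyrosine phosphatases PTPRM and PTPRT. The metabolic enzymes were PDK4, the fasting-induced kinase that switches off pyruvate dehydrogenase (76, 91 and 57 reads), PNPLA1, which makes the acylceramides of the epidermal barrier (56, 58 and 85 reads), ALDH1L2, a mitochondrial enzyme of folate metabolism (51, 40 and 63 reads), and DIO1, a thyroid hormone deiodinase. Muscle and motor proteins were NRAP of the muscle attachment sites (45, 45 and 60 reads), MYBPC1 of slow skeletal muscle, and the myosins MYH14 and MYO1E. Developmental regulators were GREB1L (46, 44 and 33 reads), EYA2, TSHZ2 and BTBD18. The remaining 9 were GSAP, a gamma-secretase activating protein (52, 46 and 42 reads), RHOD, RCAN3, CAPN8, ADGB, TMEM130, PLEKHG1, AMOT and CCDC170.

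By the rule used for symbol roots, 4 roots occurred more than once: COL with 2 of 45 coding genes, of which 6 were silent, OLFML with 2 of 4, of which 3 were silent, PTPR with 2 of 18, of which 3 were silent, and SLC with 2 of 369, of which 85 were silent. Of the other fixed lists, the epidermis list (17 of 29 measured genes silent) held PNPLA1, the endothelium, fibroblast and matrix list (9 of 30 silent) held GPR4, and the steroid, nutrient and fasting list (5 of 30 silent) held PDK4. The lists of liver and intestine (17 of 30 silent), muscle and heart (15 of 30), testis and germ line (22 of 30) and p53 targets (1 of 26) held none of the 66 genes. In those lists 13, 10, 12 and 1 of the silent genes had a read in each etoposide library.

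Few of the genes were silent in every line. Only 4 of the 66 genes (KCNV2, KLB, PTPRT and SLC26A3) were at 0 in all 33 untreated libraries, and 13 had at most 3 reads there, against 2304 and 2964 of the 4555 silent coding genes. In 10 other untreated lines, 36 of the 66 genes were below 1 CPM in every line, 18 reached a mean of 1 CPM in 1 to 4 lines and 12 in at least 5. RCAN3, a regulator of calcineurin, and CXCR2 reached it in all 10. The most abundant was CLSTN2 in OCI-AML2, at 446, 420 and 393 CPM, followed by OCI-AML3 (251 ± 21.3 CPM) and THP-1 (199 ± 9.82 CPM), whereas it had 0 reads in untreated HL-60, KASUMI-1 and NB-4. ADAM12 was at 155, 139 and 153 CPM in untreated KASUMI-1 and below 1 CPM in all other lines. ITPR3 was at 136, 134 and 138 CPM in untreated HL-60, and ADGRG6 at 102, 97.3 and 93.4 CPM in untreated OCI-AML2. ALDH1L2 lay between 20.4 and 83.5 CPM in 8 lines, GSAP was highest in NOMO-1 (44.6 ± 1.235 CPM), and CSMD1 reached 25.3 ± 2.27 CPM in NOMO-1 alone. LCK, at 6.83, 8.99 and 6.46 CPM, and DSP, at 23.3, 22.9 and 22.7 CPM, were likewise at 1 CPM or more in no untreated line but NOMO-1. For 33 of the 66 genes the level in F-36P after etoposide was above that of every other line before and after treatment, with GPR4, RPH3A, ABCA4, C1QC and KCNV2 among them. The genes were chosen for their reads in these F-36P libraries, which favours such a count, and no share of other genes was counted. For RCAN3 the level in F-36P after etoposide was below every other untreated line. Of the coding genes silent in F-36P, 97 had a mean of at least 1000 reads in another untreated line. Their median sum over the etoposide libraries of F-36P was 16 reads, against 3 reads for the 4489 silent coding genes that did not qualify, and 5 of the 97 are among the 66.

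**Figure D2:**
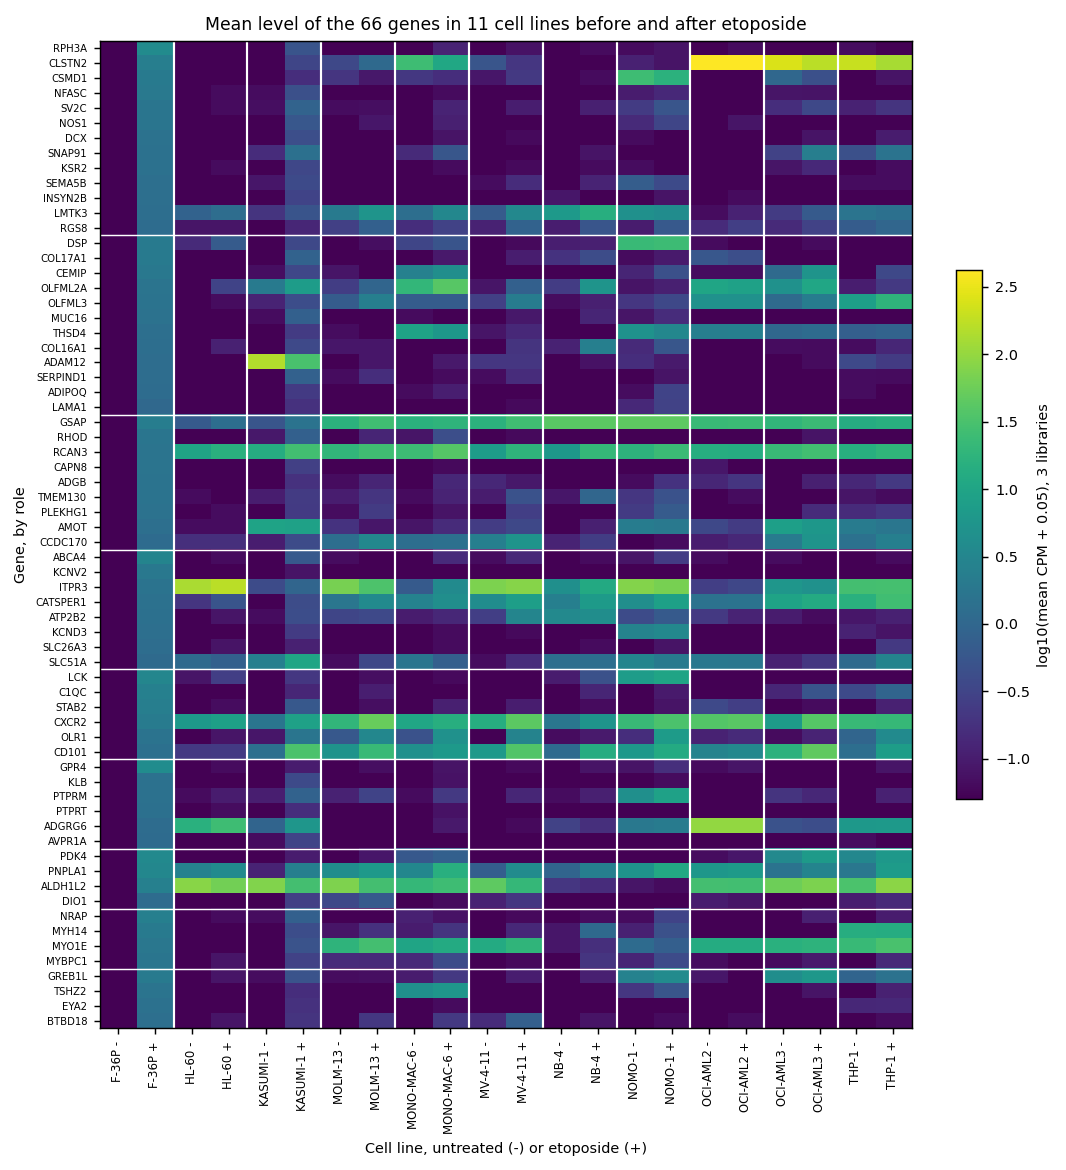
Mean level of the 66 genes (vertical axis, grouped by role) in untreated (-) and etoposide-treated (+) cells of the 11 lines (horizontal axis). The color is log10 of the mean CPM of 3 libraries plus 0.05, so the darkest cells are at 0. All genes are dark in untreated F-36P, and the lightest cells are CLSTN2 in OCI-AML2.

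The same genes also gained reads in etoposide-treated KASUMI-1, a line whose libraries had no part in the choice. Its etoposide concentration was the highest after that of F-36P, and the part of the concentration was not tested. Of the 66 genes, 37 were without untreated reads in KASUMI-1, and 32 of these (86.5%) had a read in each etoposide library there. Of all coding genes without untreated reads in both lines, 14.8% did so, and of those with at least 5 kb of exon 36.8% (243 of 661), which include 24 of 25 of the 66 genes. Coding genes with a read numbered 13143 to 13205 in untreated and 15836 to 15944 in etoposide-treated KASUMI-1. Levels were lower than in F-36P. Relative to reads on genes, the 37 genes reached from 1.11% (GPR4) to 57.6% (SERPIND1) of their F-36P level, with a median of 13.8%. SERPIND1 had 14, 16 and 17 reads, COL17A1 18, 15 and 16, NOS1 14, 9 and 10, and STAB2 11, 11 and 12 in etoposide-treated KASUMI-1. GPR4, in contrast, had 0, 2 and 1 reads and PDK4 0, 1 and 2.

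In the other lines few silent genes gained reads. In HL-60, 2 of 48 silent genes had a read in each etoposide library (4.2%, against 0.427% of the coding genes silent there and in F-36P), in MOLM-13 2 of 32 (6.2% against 0.645%), in MONO-MAC-6 4 of 31 (12.9% against 1.08%) and in MV-4-11 4 of 38 (10.5% against 2.18%). The shares were 5 of 40 in NB-4 (12.5% against 1.9%) and 4 of 26 in THP-1 (15.4% against 1.09%). None did so of 17 in NOMO-1 (against 1.42%), of 33 in OCI-AML2 (against 0.135%) or of 32 in OCI-AML3 (against 0.936%). Exon length differs between these sets of genes, as given above, and was not adjusted for in these lines. The full rule, from 0 reads to at least 20 in each library, was met in other lines by at most 6 coding genes per line. Only OLR1 in MV-4-11, with 0 untreated reads and 58, 66 and 81 reads after etoposide, is among the 66. In no line did a coding gene go the opposite way, from at least 20 reads in each untreated library to 0 in each etoposide library.

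**Figure D3:**
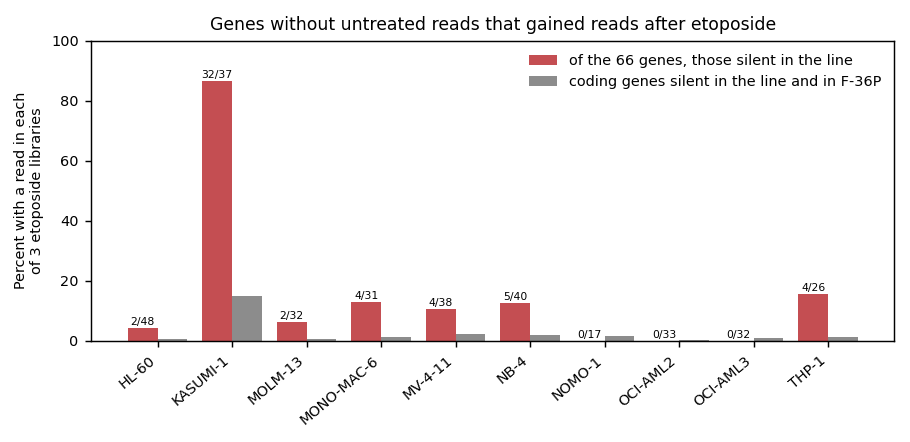
Percent of genes without untreated reads in a line that had a read in each of its 3 etoposide libraries (vertical axis), by line (horizontal axis), for the 66 genes (red, with counts above the bars) and for coding genes silent both there and in F-36P (gray). KASUMI-1 stands out with 32 of 37, against 14.8% of the coding genes.

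Each of the other lines was tested for itself with the quasi-likelihood test of edgeR, and genes were called at an adjusted p (FDR) below 0.05 and a fold change above 2. Of the 66 genes, 44 were tested in at least 1 other line and 22 had too few reads in all 10. A gene that passed the filter on low counts only through its etoposide libraries had to differ, so the counts describe the genes and do not support a response of the group. In KASUMI-1, 21 of the 66 were tested and 17 were called higher, against 14.6% of all genes tested, and 2 lower, against 6.52%. In MV-4-11 17 were tested, 12 called higher (background 12.5%) and 1 lower (2.63%), and in NB-4 14 were tested, 11 called higher (13.2%) and none lower (4.82%). In MOLM-13 15 were tested, 9 called higher (8.59%) and 2 lower (3.37%). In OCI-AML3 20 were tested, 7 called higher (7.18%) and 1 lower (1.36%), and in THP-1 23 were tested, 7 called higher (6.38%) and none lower (3.46%). In NOMO-1 24 were tested, 6 called higher (8.34%) and none lower (4.43%), and in MONO-MAC-6 20 were tested, 5 called higher (8.53%) and 2 lower (4.47%). In HL-60 9 were tested, 1 called higher (5.34%) and none lower (1.24%). Where edgeR called none lower, DESeq2 and the exact test of edgeR also called none. At an unadjusted p below 0.05 there were 0 lower genes in NB-4, 1 each in HL-60 and THP-1, and 6 in NOMO-1. In OCI-AML2 none of 14 tested genes was called either way by edgeR's quasi-likelihood test, by its exact test or by DESeq2, and none had an unadjusted p below 0.05. Of all 13604 genes tested there 0% were called higher and 0% lower, while 456 had an unadjusted p below 0.05. With or without OCI-AML2, 32 of the 66 genes were called higher in at least 1 other line, 11 in at least 3 and 5 in at least 5, and 6 were called lower in at least 1. The share of all genes called over several lines was not counted, so nothing about the 66 genes is read from these counts.

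**Figure D4:**
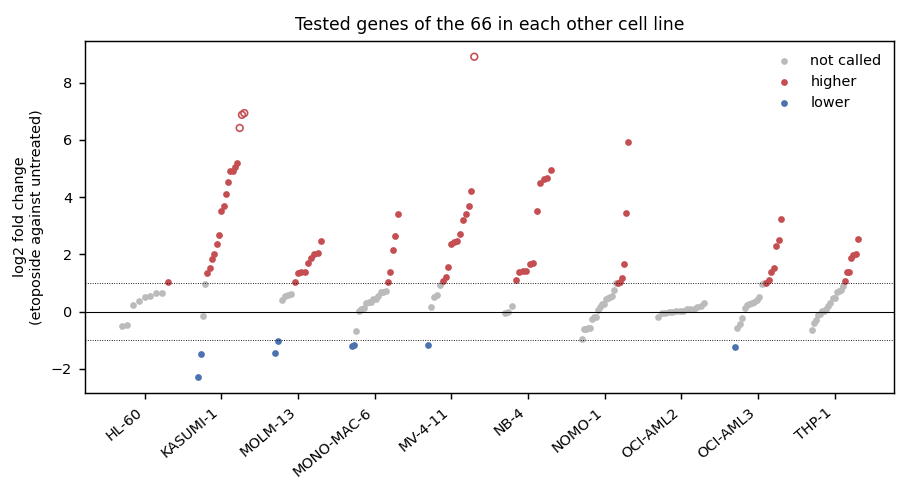
Log2 fold change of etoposide against untreated cells (vertical axis) for those of the 66 genes that were tested in each other line (horizontal axis, 1 point per gene). Red points were called higher and blue points lower by edgeR, gray points were not called, and dotted lines mark a fold change of 2. KASUMI-1 has 17 red points, and OCI-AML2 has only gray points. Hollow points had 0 untreated reads, so their height depends on the prior count of the fit.

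Of the 5 genes called higher in at least 5 lines, CD101, CXCR2 and OLR1 are receptors or surface proteins of myeloid cells. The others are PNPLA1, an enzyme of the epidermal barrier, and OLFML2A, a secreted protein. CD101 was called higher in 7 of 10 lines, of which the call in NOMO-1 (1.05) was lost without untreated replicate 2 (1.0) or etoposide replicate 1 (0.97). In KASUMI-1 it went from 1.1, 1.67 and 1.31 to 32.1, 32 and 33.9 CPM (log2 fold change 4.53, SE 0.148, adjusted p 1e-07), and in OCI-AML3 from 15.6, 17.2 and 16.4 to 44.4, 41.8 and 53.2 CPM (log2 fold change 1.51, SE 0.107). The groups did not overlap in either line. In HL-60 CD101 was not tested and lay between 0.092 and 0.322 CPM in all 6 libraries. CXCR2 was called higher in 5 lines, most in OCI-AML3, from 7, 6.8 and 7.03 to 39.8, 39.2 and 39.2 CPM (log2 fold change 2.52, SE 0.0787, adjusted p 4.23e-07). In THP-1 its libraries overlapped, at 19.7, 23.8 and 22.9 against 22.3, 18.8 and 23.2 CPM (adjusted p 0.652). OLR1 was called higher in 6 lines and reached 1 CPM in none of them before etoposide. In NOMO-1 it went from 0.048, 0.046 and 0.25 to 6.44, 8.96 and 5.55 CPM (log2 fold change 5.92, SE 0.399, adjusted p 3.93e-07), and in MV-4-11, where it had 0 untreated reads, it was at least 56.6-fold higher. In both lines OLR1 passed the low-count filter only through its etoposide libraries, so its p-value is no support. PNPLA1 was called higher in 6 lines, of which the call in NOMO-1 (1.19) was lost without etoposide replicate 1 (0.99). Among the 6 was MONO-MAC-6, where it went from 2.87, 3.59 and 3.42 to 17.2, 14.4 and 12.5 CPM (log2 fold change 2.16, SE 0.144, adjusted p 1.47e-07).

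Both olfactomedin genes rose in several lines. OLFML2A was called higher in 6 lines and went from 0.099, 0.159 and 0.332 to 5.14, 5.98 and 4.66 CPM in NB-4 (log2 fold change 4.68, SE 0.316, adjusted p 1.25e-08). In MONO-MAC-6, where it was highest, it went from 18.8, 20.8 and 19.9 to 40.6, 41.7 and 39.6 CPM (log2 fold change 1.03, SE 0.0665), and without untreated replicate 1 (1.0) it no longer passed the fold limit. In OCI-AML3 (1.11) its call was lost without untreated replicate 3 (0.98). OLFML3 was called higher in 4 lines and went from 0.05, 0.489 and 0.149 to 1.94, 2.16 and 2.34 CPM in MV-4-11 (log2 fold change 3.19, SE 0.387). Its call in OCI-AML3 (log2 fold change 1.01, adjusted p 0.0129) was lost without untreated replicate 1 (0.97), untreated replicate 3 (0.9) or etoposide replicate 3 (0.77), and also with RLE normalization (0.98), DESeq2 (0.99) or the replicate number as a block (0.99). LMTK3 was called higher in 4 lines, with the most in MV-4-11, from 0.353, 0.923 and 0.598 to 2.92, 2.83 and 4.19 CPM (log2 fold change 2.36, SE 0.282), and its call in NB-4 (1.09) was lost without untreated replicate 1 (0.82) or etoposide replicate 3 (0.91). SNAP91 was called higher in KASUMI-1, OCI-AML3 and THP-1 and went from 0.199, 0.246 and 0.289 to 2.71, 1.57 and 2.81 CPM in OCI-AML3 (log2 fold change 3.25, SE 0.361, adjusted p 2.28e-04). SNAP91 in OCI-AML3 and OLFML2A in NB-4 passed the low-count filter only through their etoposide libraries, so these p-values are no support. OLFML3 and LMTK3 in MV-4-11 would likewise not have passed it without their etoposide libraries, so these calls are no support either. CATSPER1 was called higher in NB-4, MOLM-13 and NOMO-1, and in NB-4 it went from 1.54, 2.76 and 3.05 to 6.42, 7.18 and 6.64 CPM (log2 fold change 1.42, SE 0.21). In MOLM-13 (1.05) its call was lost without untreated replicate 1 (0.77) or etoposide replicate 2 (1.0). In NOMO-1 (1.0) it was lost without untreated replicate 2 (0.89) or etoposide replicate 1 (0.89), and also with RLE normalization (0.97) or DESeq2 (0.97).

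Calls in a single line were common among the rest. COL16A1 rose in NB-4, from 0.05, 0.106 and 0.055 to 1.54, 2.83 and 2.86 CPM (log2 fold change 4.94, SE 0.493, adjusted p 5.49e-07), and ADGRG6 rose in KASUMI-1, from 0.838, 0.647 and 1.08 to 6.56, 4.43 and 6.01 CPM (log2 fold change 2.68, SE 0.243). COL16A1 had too few untreated reads to pass the low-count filter without its etoposide libraries, so its p-value is no support. There were 8 genes that were called higher in KASUMI-1 and nowhere else. Among them COL17A1, STAB2 and SERPIND1 had 0 untreated reads and were at least 16-fold, 11.1-fold and 15.3-fold higher. NRAP had 1 read over the untreated libraries of KASUMI-1 and 20, 13 and 13 reads after etoposide, and PTPRM had 3 reads and then 16, 15 and 18. GPR4, RPH3A, ABCA4 and C1QC, among the genes with the most F-36P reads, were tested in no other line, and PDK4 and LCK were called in none. PDK4 was at 3.28, 3.35 and 3.66 CPM in untreated and 7.91, 6.09 and 6.37 CPM in etoposide-treated OCI-AML3 (log2 fold change 0.99, SE 0.142, adjusted p 8.77e-04), just under the fold limit. PTPRT and SLC26A3 were tested in no other line. GREB1L, tested in 3 lines, and CSMD1, tested in 2, were called higher in none. GSAP was called higher in KASUMI-1 (log2 fold change 1.52, SE 0.33) and HL-60 (1.03). In KASUMI-1 it would not have passed the low-count filter without its etoposide libraries, so that call is no support. The HL-60 call was lost without untreated replicate 2 (0.97), untreated replicate 3 (0.99) or etoposide replicate 1 (0.82), and with DESeq2 (1.05, adjusted p 0.071).

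Some genes that were switched on in F-36P fell in other lines that already used them. Called lower in at least 1 other line were 6 genes, with 8 lower and 75 higher calls over all lines. Of all genes tested, between 0% (OCI-AML2) and 6.52% (KASUMI-1) were called lower in a line. The number of lower calls that such shares would give was not counted, so no pattern of the group is read from these falls. ADAM12 fell in KASUMI-1, from 155, 139 and 153 to 34.3, 25.7 and 35.7 CPM (log2 fold change -2.27, SE 0.127, adjusted p 8.82e-07), and after the fall it was still above the 1.24 ± 0.15 CPM of etoposide-treated F-36P. ALDH1L2 fell in KASUMI-1 (-1.48, SE 0.16), in MOLM-13 (-1.45, SE 0.0966) and in MV-4-11 (-1.17, SE 0.0819), and it rose in THP-1, from 33.4, 31.5 and 31.9 to 96.2, 71.7 and 93.2 CPM (1.39, SE 0.134, adjusted p 4.61e-07). CLSTN2 fell in MONO-MAC-6, from 25.6, 26.4 and 23.9 to 10.9, 10.8 and 10.9 CPM (-1.21, SE 0.0749), and in OCI-AML2, where it was most abundant, it was at 435, 424 and 409 CPM after etoposide. ITPR3 fell in MOLM-13, from 69.3, 64.8 and 63.1 to 30, 37.6 and 33.7 CPM (-1.02, SE 0.0901), and this call was lost without untreated replicate 1 (-0.99) or etoposide replicate 1 (-0.93), and with a mean of at least 5 CPM as the filter (-0.97). The same gene rose in MONO-MAC-6, from 0.554, 0.344 and 0.868 to 3.31, 3.71 and 4.16 CPM (2.65, SE 0.252). There it would not have passed the low-count filter without its etoposide libraries, so this rise is no support. SLC51A fell in MONO-MAC-6 (-1.18, SE 0.292, adjusted p 0.00401), a call lost without etoposide replicate 3 (-0.91), and it rose in KASUMI-1, from 2.1, 2.64 and 2.63 to 10.2, 10.6 and 9.92 CPM (2.01, SE 0.141). CSMD1 fell in OCI-AML3 (-1.22, SE 0.361, adjusted p 0.0253), and the call was lost without untreated replicate 1 (-1.13, adjusted p 0.0875), untreated replicate 2 (-1.21, adjusted p 0.0627) or etoposide replicate 1 (-0.9, adjusted p 0.0572). With the replicate number as a block it was also lost, at a fold of like size (-1.23, adjusted p 0.0596). In NOMO-1 it was at 27.8, 23.6 and 24.3 CPM before and 17.8, 16.5 and 16.2 CPM after etoposide (-0.56, SE 0.102), under the fold limit. All p-values measure the spread between 3 libraries per group and no more.

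**Figure D5:**
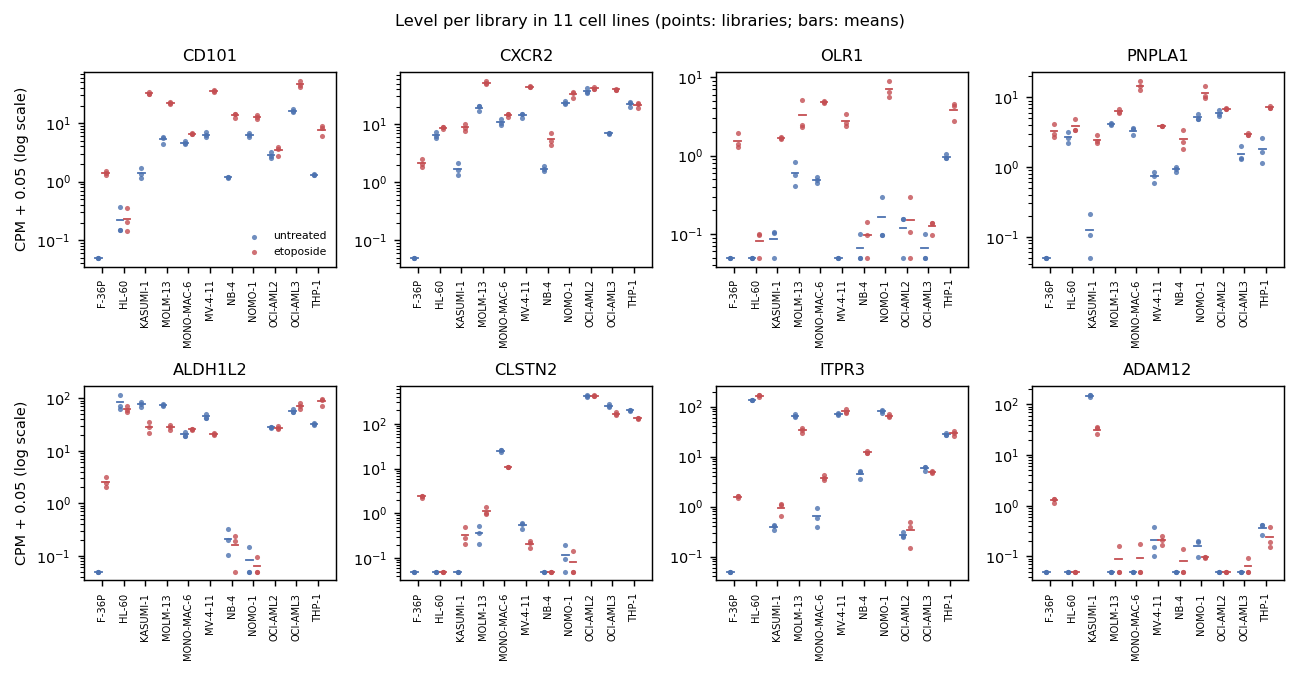
CPM plus 0.05 (vertical axis, log scale) in each library of the 11 lines (horizontal axis) for 8 of the genes, untreated in blue and etoposide in red, with points for libraries and bars for means of 3. CD101, CXCR2, OLR1 and PNPLA1 rose in 5 to 7 other lines, whereas ALDH1L2, CLSTN2 and ITPR3 rose in some lines and fell in others and ADAM12 fell in KASUMI-1.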

How the data were processed

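The authors deposited 1 column of read counts per gene for each of 66 libraries, raw and without normalization. Per the labels and methods, reads from a stranded mRNA kit were aligned by STAR 2.5.3a (GRCh38.p7, gencode release 25) and counted by its gene counter, after FastQC 0.11.5, and the authors tested with edgeR 3.20.1 at the FDR and fold limits used below. The strand setting of the count column, the low-count filter and the kind of edgeR test are not given in the sources used here. The labels call the 3 libraries of a group biological replicates, and no pair of libraries of a group agreed within sampling noise.

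From these counts, 57992 identifiers were used after leaving out 45 pseudoautosomal copies with 0 reads. Names, gene types, positions and exon lengths came from gencode release 44 on GRCh38 (56948 identifiers matched). CPM used TMM sizes over all 66 libraries, except the summed list levels and the nearby genes, which used reads on genes. Each line's 3 etoposide libraries were compared with its 3 untreated libraries in R 4.3.3 with edgeR 4.0.16 (filterByExpr at 10 reads per library and 15 in total, TMM, quasi-likelihood test, Benjamini-Hochberg over all genes tested, FDR below 0.05 and fold change above 2). The difference of an effect between lines was tested by an interaction term over 12 libraries. The fit was tested on simulated data. DESeq2 1.42.0 and the other alternatives are under the closing section. Features were computed with Python 3.11.15 and pandas 2.3.3, and figures with matplotlib 3.10.9.

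Same-numbered libraries deviated together in all 3 pairs (r above 0.1) in MOLM-13, NB-4 and OCI-AML2, so the replicate number may pair the libraries there. Differently numbered libraries were not compared, so pairing is not shown. The main test used no pairing, and the replicate number as a block is given as an alternative. The 66 genes and the gene lists were chosen with earlier results of these data known, and roles were assigned after the genes were known. Described in detail are the 15 genes with the highest CPM in etoposide-treated F-36P, the 10 called higher in the most other lines, the 8 most abundant in other untreated lines, up to 5 called lower, those meeting the rule elsewhere, those sharing a symbol root or standing on a list, and the 3 on each side of the read limit. The other genes were named to account for all 66. Intervals and limits for 0 reads cover counting error only.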

Additional observations from a re-analysis of the deposited data

Results flagged for a closer look

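All 4 genes that were called higher in at least 1 line and lower in another were compared between lines by an interaction test with edgeR (3 libraries per group). For ALDH1L2 the log2 fold change in THP-1 exceeded that in KASUMI-1 by 2.95 (SE 0.212, adjusted p 9.54e-09), with 3 of 3 etoposide libraries above all untreated libraries in THP-1 and 3 of 3 below in KASUMI-1. ITPR3 differed by 3.63 (SE 0.253, adjusted p 2.13e-08) between MONO-MAC-6 and MOLM-13. CLSTN2 differed by 2.96 (SE 0.33, adjusted p 2.91e-06) between MOLM-13, where it rose from 0.31 to 1.067 CPM on average, and MONO-MAC-6. SLC51A differed by 3.13 (SE 0.311, adjusted p 1.14e-06) between KASUMI-1 and MONO-MAC-6. The pairs of lines were taken for their opposite calls, so a difference was built into the choice and the adjusted p-values add no support. Etoposide concentrations also differed between lines.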

How the results depend on the processing

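The choice of the genes depends on its limits: 10 reads in each etoposide library gave 275 genes, 50 reads 6, up to 1 untreated read 113, and RefSeq gene types 66. Leaving out 1 F-36P library gave 72 to 102 genes, with 102 without untreated replicate 2. Without a filter on low counts, members called higher numbered 4 in HL-60, 52 in KASUMI-1, 10 in MONO-MAC-6 and 15 in NOMO-1, 2 were called lower in MV-4-11, and 59 were called higher in at least 1 line. With a mean of at least 5 CPM, those called higher numbered 0 in HL-60, 4 in KASUMI-1, 2 in MOLM-13, 2 in MONO-MAC-6, 3 in MV-4-11, 4 in NB-4, 3 in NOMO-1, 4 in OCI-AML3 and 2 in THP-1, those called lower 1 in MOLM-13, 1 in MONO-MAC-6 and 0 in OCI-AML3, and 12 were called higher in at least 1 line, as fewer genes were tested. Without a fold change minimum, those called higher numbered 4 in HL-60, 13 in MONO-MAC-6, 11 in NOMO-1 and 13 in OCI-AML3, and those called lower 4 in NOMO-1, 3 in OCI-AML3 and 1 in THP-1. DESeq2 called 0 higher in HL-60. Up to 3 reads over the 33 untreated libraries left 13 genes, and a limit of 10 reads gave 5 genes meeting the rule in another line (ABCA4, COL17A1, OLR1, SERPIND1 and STAB2).

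With the replicate number as a block, 9 lines kept their counts of higher and lower calls, and OCI-AML3 had 6 called higher, as OLFML3 fell under the fold limit (0.99, adjusted p 0.0285), and 0 called lower, as CSMD1 had a like fold (-1.23) at an adjusted p of 0.0596. The union over lines under each alternative and library size alone were chosen after seeing the data. Library size alone raised the median log2 fold change of all genes by 0.103 in HL-60, 0.174 in KASUMI-1, 0.116 in MONO-MAC-6, 0.128 in MV-4-11 and 0.206 in NB-4.

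Leaving out 1 library of a line gave 0 to 2 called higher in HL-60, 18 to 21 in KASUMI-1, 8 to 10 in MOLM-13, 5 to 6 in MONO-MAC-6, 12 to 14 in MV-4-11, 10 to 12 in NB-4, 4 to 7 in NOMO-1, 7 to 8 in OCI-AML3 and 7 to 9 in THP-1. For those called lower the range was 1 to 2 in MOLM-13, MONO-MAC-6 and MV-4-11, and 0 to 1 in NOMO-1 and OCI-AML3. Each of these fits filtered low counts anew and needed the reads in fewer libraries, so genes could enter that were not tested before. In KASUMI-1 the whole range of higher calls lies above the 17 with all libraries. The ranges therefore do not measure the loss of a library alone. Of 1742 alternative values of 129 named gene and line values, 31 lost and 39 gained a call and none turned direction among called values. The cause was not tested. At this depth, a level under 0.052 CPM over 3 F-36P libraries cannot be told from 0.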

Other observations

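Coding genes outside the 66 that met the same read limits in another line were few. In KASUMI-1 they were TNFRSF9, KLHDC9, YPEL4, IL21R, ABI3 and CYP4F3. KLHDC9 had 25, 27 and 30 reads in etoposide-treated KASUMI-1 and 1, 5 and 6 in etoposide-treated F-36P, where it was also silent before. ABI3, an adaptor of actin regulators, had 94, 118 and 107 reads in KASUMI-1 and 9, 12 and 9 in F-36P. In NOMO-1, NEUROD4, a neuronal bHLH factor, had 101, 123 and 105 reads after etoposide and 0 before, and 1, 1 and 1 in etoposide-treated F-36P. In NB-4, COL1A1, a fibrillar collagen, had 51, 46 and 43 reads, and 41, 39 and 23 in etoposide-treated F-36P, where 4 untreated reads kept it out of the 66. The genes named here were chosen after their values were seen.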
